A study of Rattus norvegicus with 8 samples.

Results

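The 10 genes described here encode the inhibin, activin and AMH axis of the Sertoli cell, the somatic cell that nurses germ cells in the seminiferous tubule. They are the subunit genes Inha, Inhba and Inhbb, the hormone gene Amh, the binding proteins Fst and Fstl3, and the receptors Amhr2, Acvr1b, Acvr2a and Acvr2b. They were found by symbol among 17582 genes with a probe set of their own on a gene-level Affymetrix rat array, and each of the 10 had 1 probe set. The array annotation puts all 10 probe sets in its cross-hybridization class 1, for sets with a unique target.

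Rat Sertoli cells were isolated from testes and grown in primary culture in medium with fetal bovine serum. The cultures were exposed for 24 hours to 0.1 µM NP, to 0.1 mM MBP, to 0.1 µM NP with 0.1 mM MBP, or to solvent alone (control). The labels do not spell out NP or MBP and give neither the strain and age of the rats nor the number of cultures pooled. Each group had 1 gene-level array (microRNA arrays of the same groups were not used here), so no difference between 2 groups has a replicate error. How precise any value is depends on that single array.

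Inhibins and activins are dimers built from shared subunits. An alpha subunit joined to a beta subunit gives inhibin, which lowers FSH secretion by the pituitary, and 2 beta subunits give activin, which raises it and also acts inside the testis. Follistatin and its relative FSTL3 bind activin and keep it from its receptors. AMH, made by Sertoli cells, causes the Müllerian ducts of the male fetus to regress and falls at puberty. All these ligands belong to the TGF-beta family. Activins and AMH each signal through a type II receptor that activates a type I receptor, which then phosphorylates SMAD proteins.

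The proximal promoters of Inha and Amh are shown because the factors that bind such sequences in gonadal cells were measured on the same arrays and are described further on. Both are from RefSeq, build GRCr8, and give the 250 bases before the annotated start, written 5′ to 3′ on the strand of the gene. Inha lies at chr9:84442859-84443108 on the plus strand and Amh at chr7:9559868-9560117 on the minus strand. Capitals mark matches on either strand. The strings searched were AGGTCA, a half-site for the nuclear receptor NR5A1, then GATAA and the related string GATAG, which zinc-finger factors such as GATA4 bind. The other strings were TGACGTCA, the cyclic AMP response element (CRE), a variant of that element written TGCGTCA, and the start-site element TATAA.
Inha: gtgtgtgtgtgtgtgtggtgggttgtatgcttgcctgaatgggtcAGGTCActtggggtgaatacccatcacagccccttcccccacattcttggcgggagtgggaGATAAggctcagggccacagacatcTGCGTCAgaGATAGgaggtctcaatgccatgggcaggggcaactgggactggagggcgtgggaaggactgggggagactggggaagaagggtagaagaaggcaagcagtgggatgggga
Amh: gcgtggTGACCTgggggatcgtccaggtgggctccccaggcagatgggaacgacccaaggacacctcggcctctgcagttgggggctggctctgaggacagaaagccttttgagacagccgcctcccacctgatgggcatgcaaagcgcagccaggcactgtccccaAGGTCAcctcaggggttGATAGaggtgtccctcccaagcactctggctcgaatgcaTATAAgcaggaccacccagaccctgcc

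The CRE variant in Inha begins 119 bases before the start and is followed by GATAG at 110 bases. The AGGTCA and GATAA matches of Inha begin at 205 and 144 bases. In Amh, AGGTCA letters begin at 83 bases on the gene's strand and at 244 bases on the other strand, GATAG at 66 bases and TATAA at 27 bases. No match overlapped another. Of 33469 rat promoters of the same length, 14.1% hold AGGTCA, 23.5% GATAA, 20.2% GATAG, 1.59% TGACGTCA, 1.66% TGCGTCA and 24.0% TATAA, so all of these strings but the CRE forms are common. Promoters of 9 of the 10 genes were in the table, all but that of Fst. Beside Inha and Amh, matches were found in Inhba (GATAG and TATAA) and in Fstl3 (AGGTCA and TATAA). A match is a description of letters and not a shown binding site.

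Signals are log2 values normalized by the authors with RMA. Probe sets with a mean over the 4 arrays at or above 7.50, the median of 27596 non-control probe sets, were kept for comparison, which left 13798. Of the 10 genes, 8 passed this filter. Amh and Acvr2b did not, and their values are given as descriptions. As a background measure, 45 antigenomic probe sets, designed to match nothing in the rat, reached 9.56 with NP, 9.61 with MBP and 9.55 with both, against 9.78 in control. Inhba and Fstl3 lay above all 45. For the other 8 genes, between 6 and 17 of the 45 read higher than the gene, 15 of them in the case of Amh and 17 in the case of Acvr2b, so the filter does not show that those genes were above background.

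Of 13 measured Sertoli cell markers, 11 were above the filter, among them Sox9, Wt1, Clu, Gata4 and Fshr. No antigenomic set read higher than these, whereas 13 of the 45 did for Sox8, 11 for Dmrt1, 11 for Dhh and 6 for Nr5a1. Of all 17582 genes, 9998 passed the filter. One of the 11 markers above the filter was the tight-junction gene Cldn11, which was much lower on the arrays with MBP. It read 10.02 with NP, 9.37 with MBP and 9.46 with both, against 10.04 in control. Its MBP pairs were -0.67 and -0.56, its adjusted p in the limma fit described below was 0.081, and no kept set had a lower one. For MBP minus control it was the only one of the 11 past 0.2 in size, and the 11 had a median of 0.02. Signal was also strong for markers of peritubular myoid cells, the contractile cells around the tubule. All 5 measured markers (Myh11, Des, Cnn1, Tagln and Actg2) passed, with a list mean of 12.6 on each array. Above the filter were also 2 of 6 measured Leydig cell markers, 1 of 5 germ cell markers, 1 of 5 macrophage markers and 1 of 3 endothelial markers. Each of these shares was smaller than that of all genes. The mean signal of the 5 germ cell markers, 4 of them below the filter, was 7.15 with NP, 7.34 with MBP and 7.42 with both, against 7.10 in control. Dazl and Mael carried this difference: MBP minus control was 0.93 for Dazl and 0.40 for Mael, and 0.06 for Kit, -0.07 for Dppa3 and -0.14 for Stra8. The cell types in the cultures were not counted, and fewer cells of a type and less RNA per cell cannot be told apart.

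None of the 10 genes differed by 1.5-fold in any comparison, and the widest range over the 4 arrays was 0.23 on the log2 scale, for Acvr2a. The narrowest was 0.05, for Inhba. The median range was 0.13 for the 10 genes and 0.12 for the 8 above the filter, against 0.10 for all 13798 probe sets. The plot of levels by array shows all 10 genes at the same vertical scale.

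**Figure D1:**
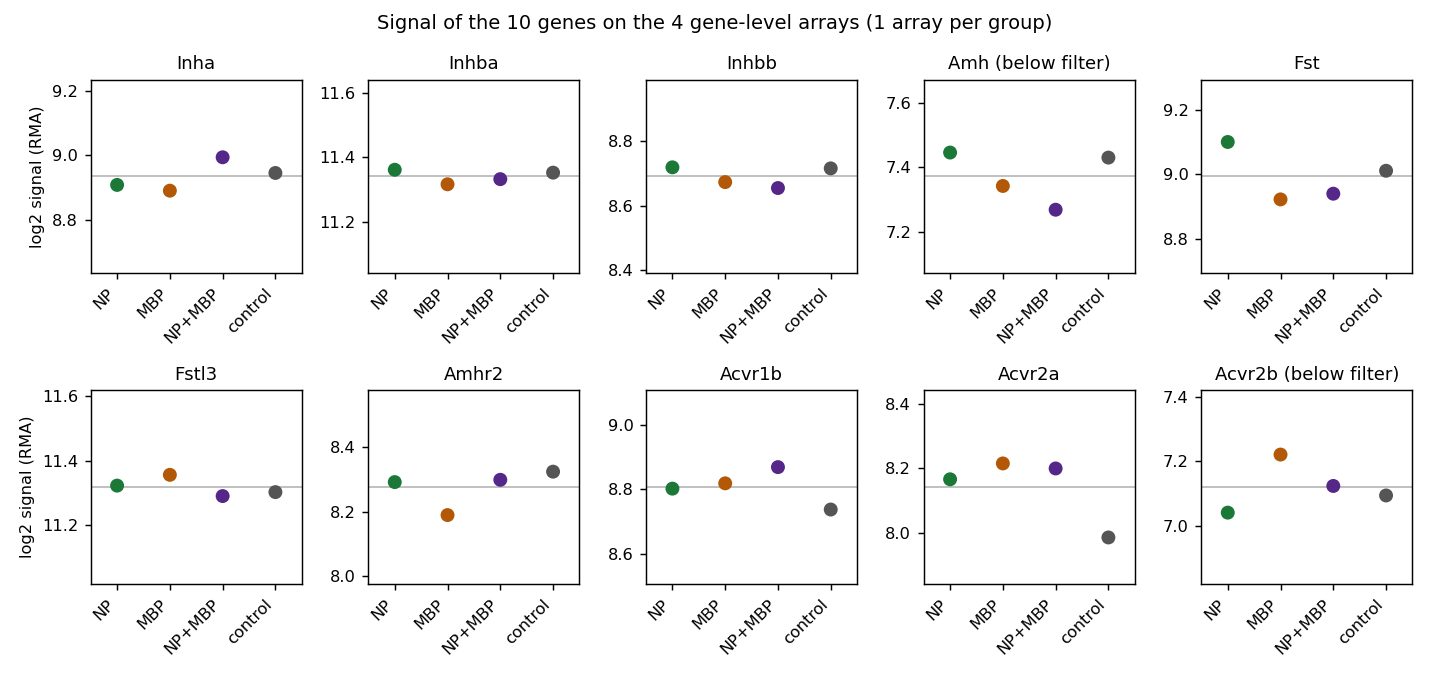
Log2 signal (y axis, each panel spanning 0.3 above and below the gene's mean, drawn as a grey line) of the 10 genes on the NP, MBP, NP+MBP and control arrays (x axis, 1 array per point, no error bars). Acvr2a is lowest on the control array at 7.98, with the 3 treated arrays between 8.17 and 8.21.

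The subunit genes barely differed between groups. Inha, which encodes the alpha subunit that turns a beta subunit into inhibin, lies on chromosome 9 from 74781223 to 74784124 (coordinates of the array annotation, assembly RGSC3.4). Its signal was 8.91 with NP, 8.89 with MBP and 8.99 with both, against 8.94 in control. The single compounds thus lay below control and the combination above it, all within 0.10 of each other. Set against control, Inha differed by -0.04 with NP, -0.05 with MBP and 0.05 with both. With quantile normalization of the arrays the last of these was 0.00074.

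Inhba, on chromosome 17 from 57244466 to 57257531, encodes the beta A subunit of activin A and inhibin A. It read 11.36 with NP, 11.32 with MBP and 11.33 with both, against 11.35 in control. Its differences, 0.01, -0.04 and -0.02, were smaller than those of most probe sets: 10.0%, 35.3% and 16.2% of all kept sets differed less in the 3 comparisons. Activin A is also made by peritubular cells. The myoid marker list had a mean of 12.62 with NP, 12.63 with MBP and 12.62 with both, against 12.62 in control, and its part in the level of Inhba was not tested. Inhbb, on chromosome 13 from 32172165 to 32176791, encodes the beta B subunit of inhibin B, the main circulating inhibin of male rats. Inhbb stood at 8.72 with NP, 8.67 with MBP and 8.66 with both, against 8.72 in control. Both arrays with MBP were thus below both arrays without it, with a range of 0.06 over the 4 arrays.

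Amh, on chromosome 7 from 10417325 to 10419673, read just below the filter. It stood at 7.45 with NP, 7.34 with MBP and 7.27 with both, against 7.43 in control. Both arrays with MBP were lower than both arrays without it. MBP minus control was -0.09 and NP+MBP minus NP was -0.18, a mean of -0.13 ± 0.06 (SD, n = 2 pairs). The first pair is without NP and the second with it, so this SD is not a replicate error. Probe sets whose signal lay within 0.25 of that of Amh had median differences of -0.04 and -0.01 in these pairs. Cldn11 was lower on the same arrays, as given above. The germ cell markers Dazl and Mael were higher there, while the other 3 of that list were not all so. Mael, the 1 of the 5 above the filter, read 7.89 with NP, 8.28 with MBP and 8.43 with both, against 7.88 in control. The part of these markers in the values of Amh and of Fst, below, was not tested.

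Fst, on chromosome 2 from 46542246 to 46550678, encodes follistatin, which binds activin nearly irreversibly. Its signal was 9.10 with NP, 8.92 with MBP and 8.94 with both, against 9.01 in control. Here too both arrays with MBP were below both arrays without it. MBP minus control was -0.09 and NP+MBP minus NP was -0.16, a mean of -0.12 ± 0.05 (SD, n = 2 pairs). As for Amh, this SD is not a replicate error. For NP the pairs gave 0.09 and 0.02.

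Fstl3, on chromosome 7 from 11437262 to 11442906, encodes a second activin-binding protein that lacks the heparin-binding stretch of follistatin. It read 11.32 with NP, 11.36 with MBP and 11.29 with both, against 11.30 in control. The lower values with MBP seen for Fst had no counterpart in Fstl3, whose MBP pairs ran in opposite directions at 0.05 and -0.03. Whether the 2 binding proteins differed in their response was not tested.

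Among the receptors, Acvr2a gave the only differences of at least 0.2 on the log2 scale (1.15-fold). This gene, on chromosome 3 from 29779815 to 29808885, encodes a type II receptor that binds activins. Acvr2a stood at 8.17 with NP, 8.21 with MBP and 8.20 with both, against 7.98 in control, so the 3 treated arrays lay within 0.05 of each other and all above the control array. Set against control, Acvr2a differed by 0.18 with NP, 0.23 with MBP (1.17-fold) and 0.21 with both (1.16-fold). Of all kept probe sets, 90.7%, 95.4% and 89.8% differed less in these comparisons. The 3 differences share the control array. In the pairs that leave it out, Acvr2a differed by -0.02 for NP+MBP minus MBP and by 0.03 for NP+MBP minus NP.

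The related type II receptor gene Acvr2b, on chromosome 8 from 124364330 to 124395759, did not share this pattern and lay below the filter. Acvr2b read 7.04 with NP, 7.22 with MBP and 7.12 with both, against 7.09 in control. The MBP pairs were 0.13 and 0.08, and the NP pairs -0.05 and -0.10. Acvr1b, on chromosome 7 from 139937993 to 139958740, encodes the type I receptor ALK4, which carries the activin signal into the cell. Acvr1b read 8.80 with NP, 8.82 with MBP and 8.87 with both, against 8.74 in control. All 3 treated arrays were higher than control, and the pairs lay close to each other, at 0.06 and 0.05 for NP and at 0.08 and 0.07 for MBP.

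Amhr2, on chromosome 7 from 141203832 to 141212653, encodes the type II receptor of AMH, which both Sertoli and Leydig cells carry. Its signal was 8.29 with NP, 8.19 with MBP and 8.30 with both, against 8.32 in control. The MBP array alone was low, and NP+MBP minus NP was 0.01. The mean of the 6 measured Leydig cell markers, only 2 of them above the filter, was 7.24 with NP, 7.19 with MBP and 7.06 with both, against 7.27 in control. For NP+MBP minus control these 2, Star and Insl3, gave 0.007 and -0.26. Insl3 read 7.48 with NP, 7.59 with MBP and 7.41 with both, against 7.67 in control. Its values with NP and with both were below the filter value, which is applied to the mean. As for Amh, 15 of the 45 antigenomic sets read higher than Insl3, so the filter does not show that it was above background. The part of the Leydig cell markers in the level of Amhr2 was not tested. Of the 10 genes, 4 lie on chromosome 7. There the Amh and Fstl3 probe sets start 1019937 bases apart and those of Acvr1b and Amhr2 start 1265839 bases apart.

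The first comparison, NP minus control, concerns the first compound given singly. None of the 8 genes above the filter differed by 0.2 or more, where 4.42% of all kept probe sets were higher and 2.82% lower by that size. At 1.5-fold the count was again 0, against 0.0725% of all sets. The 8 genes had a median difference of 0.01, and all kept sets 0.02.

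For MBP alone, 1 of the 8, Acvr2a, was higher by at least 0.2 and 0 were lower, where 4.5% of all sets were higher and 2.54% lower. The median was -0.04 for the 8 genes and 0.03 for all kept sets. For NP+MBP, 1 of 8 was higher, again Acvr2a, and 0 were lower, where 7.71% and 4.24% of all sets were. The medians were -0.02 and 0.03. None of the 8 reached 1.5-fold, which 0.0652% of all sets did for MBP and 0.225% for NP+MBP.

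Leaving out the control array, NP+MBP minus MBP gave none of the 8 at 0.2 or more, where 0.551% of all sets were higher and 0.312% lower. NP+MBP minus NP also gave none, where 1.44% were higher and 0.732% lower. At 1.5-fold there were none either, against 0.029% and 0.0362% of all sets. A count of 0 or 1 among 8 genes is no result about these genes beside such backgrounds.

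With 2 arrays for and 2 without each compound, its difference can be taken from 2 pairs that have no array in common. Across the 10 genes, the MBP pairs had the same sign in 7 and the NP pairs in 4, where 63.5% and 61.2% of all kept probe sets did. The plot of the pairs shows Fst and Amh together at the lower left for MBP.

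**Figure D2:**
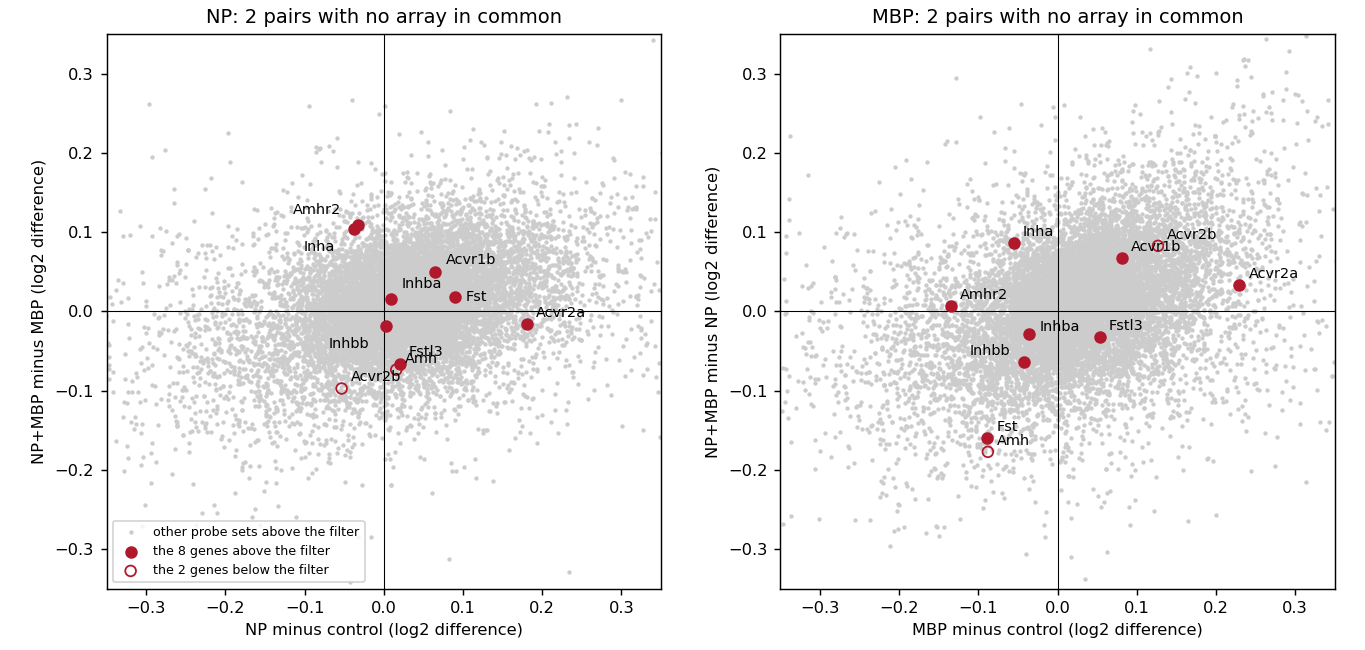
Log2 differences for NP (left) and MBP (right), each from 2 pairs of arrays with no array in common; grey points are all probe sets above the filter, filled red points the 8 genes above it and open red points the 2 below it. Fst and Amh lie at -0.09 on the x axis and at -0.16 and -0.18 on the y axis for MBP; 149 probe sets for NP and 143 for MBP lie outside the axes, which end at 0.35.

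An additive model with a term for each compound was fitted across all 13798 probe sets with limma, using the 1 degree of freedom that the 4 arrays leave. That degree of freedom is the departure from additivity, given below for each gene. A real departure would therefore count as noise in these p-values. The model called none of the 8 genes for MBP or for NP at an adjusted p under 0.05, and 0% of all sets for either compound. The lowest of the 8 for MBP was Fst, with an unadjusted p of 0.0215 and a Benjamini-Hochberg adjusted p of 0.283 from limma's fit across all sets, and both pairs ran in the same direction. Fst was the 1 gene of 8 with an unadjusted p under 0.05 for MBP, where 15.3% of all kept sets had one. For NP no gene of the 8 had one, where 11.8% of all sets did, and the lowest adjusted p from limma was 0.519, for Acvr1b. These p-values rest on single arrays, so a miss does not show that the groups were alike.

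The differences from control varied with signal over all probe sets. Between 6.0 and 6.5 the median of all probe sets was -0.11 for NP+MBP minus control, whereas between 9.0 and 9.5 it was 0.05. For each gene the median of probe sets within 0.25 of its signal is the value to set beside it. Acvr2a, at 0.18 with NP, 0.23 with MBP and 0.21 with both, is set beside such medians of 0.01, 0.01 and 0.02. Amh, at 0.02, -0.09 and -0.16 in the same order, is set beside -0.05, -0.04 and -0.06. How far this dependence enters the values of the 10 genes was not tested, and the plot against signal shows all 10.

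**Figure D3:**
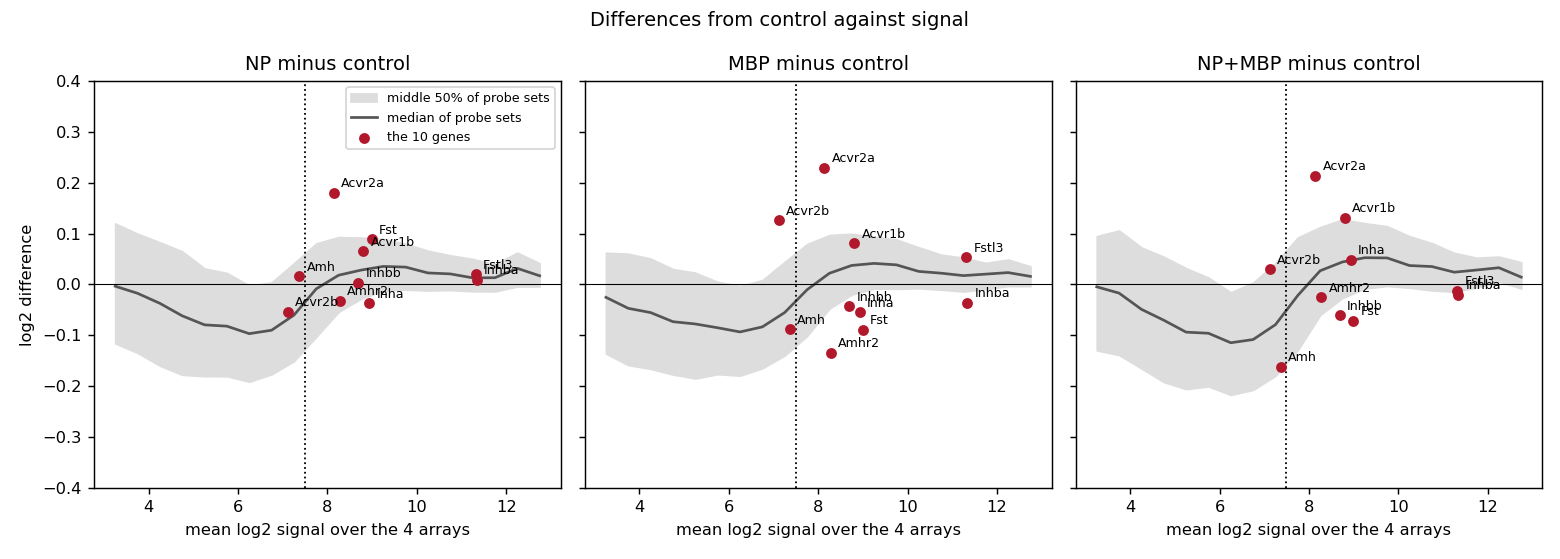
Log2 difference from control (y axis) against the mean log2 signal over the 4 arrays (x axis) in the 3 comparisons; the grey line is the median and the band the middle 50% of non-control probe sets in bins of 0.5 with at least 100 sets, the dotted line is the filter, and red points are the 10 genes. Acvr2a lies above the band in all 3 panels, and Amh lies near -0.16 in the NP+MBP panel.

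The departure from additivity (NP+MBP minus NP minus MBP plus control) was -0.20 for Acvr2a, 0.14 for Amhr2 and 0.14 for Inha. Those of the other 7 genes were at most 0.09 in size, and over all kept sets the departure had an SD of 0.10. It has no replicate and no test.

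The genes whose patterns over the 4 arrays were nearest to the 3 of the 8 genes with the widest range were then taken from 9997 others above the filter. Likeness was the root mean square distance between log2 profiles, each centred on its own mean over the 4 arrays. Nearest to Acvr2a was Gas5, a non-coding host of small nucleolar RNAs, at a distance of 0.00102. Gas5 read 10.41 with NP, 10.45 with MBP and 10.44 with both, against 10.22 in control. LOC100360623 followed at 0.00533 and Phldb3 at 0.00631. Nearest to Fst were S100a4, a calcium-binding protein, at 0.00901, Abhd14a at 0.00916 and Rgs7bp at 0.0116. S100a4 read 10.98 with NP, 10.79 with MBP and 10.81 with both, against 10.90 in control. Nearest to Amhr2 were Slc2a13 at 0.00936, Adcy4 at 0.0113 and Swi5 at 0.0115. These profiles have only 4 points each, and 9997 genes were searched.

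Other genes of the pathway were taken from 7 lists of 88 genes in all, of which 83 were measured and 63 passed the filter. Against control, 0 of the 63 were higher and 3 lower by at least 0.2 for NP, 0 and 2 for MBP, and 2 and 2 for NP+MBP. Of all kept sets, 4.42% were higher and 2.82% lower for NP, 4.5% and 2.54% for MBP, and 7.71% and 4.24% for NP+MBP, and the lists below are to be read beside these shares. The 63 had medians of 0.01, 0.02 and 0.02. None reached an adjusted p under 0.05 in limma's model, where the lowest was 0.186, for Pcsk5 and MBP. Of the 45 antigenomic sets, 11 read higher than Nodal, 11 than Crem, 12 than Pcsk5 and 13 than Sost. For Bmp7 and for Gdf6 the number was 15. The filter therefore does not show that these 6 genes, described below, were above background.

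Among the other ligands, Nodal, a ligand that shares the activin receptors, was lower than control on every treated array. It read 8.26 with NP, 8.34 with MBP and 8.29 with both, against 8.55 in control, so that the differences were -0.29, -0.21 and -0.25. They share the control array, and the pairs without it gave -0.05 (NP+MBP less MBP) and 0.03 (NP+MBP less NP). Gdf6, a BMP-type ligand, read 7.48 with NP, 7.57 with MBP and 7.49 with both, against 7.70 in control, and its pairs without the control array gave -0.08 and 0.01. Bmp7 was at 7.59 with NP, 7.72 with MBP and 7.77 with both, against 7.55 in control, a difference of 0.22 for NP+MBP. Of the 14 ligands above the filter, 0 were higher and 2 lower by 0.2 for NP, 0 and 1 for MBP, and 1 and 2 for NP+MBP, all of them among these 3 genes. As medians, the 14 had 0.01 with NP, -0.01 with MBP and -0.004 with both. The 3 TGF-beta ligands Tgfb1, Tgfb2 and Tgfb3 each stayed within 0.10 of control.

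Of the 4 prohormone convertases, which cut the ligand precursors, Pcsk5 and Pcsk6 were lower with MBP in both pairs. Pcsk5 read 8.30 with NP, 8.04 with MBP and 8.07 with both, against 8.27 in control, and its MBP pairs were -0.22 and -0.23. Those of Pcsk6, which did not reach 0.2, were -0.16 and -0.17, and those of Pcsk7 were 0.15 and -0.02. Furin, the convertase best known for cutting these precursors, was at 10.49 with NP, 10.60 with MBP and 10.54 with both, against 10.48 in control. Among the antagonists, 1 of 6 reached 0.2. It was Sost, a BMP and Wnt antagonist, at 8.01 with NP, 8.07 with MBP and 8.03 with both, against 8.23 in control. Without the control array, its pairs gave -0.04 and 0.02.

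None of the 9 other receptors above the filter reached 0.2. Tgfbr3 encodes betaglycan, the co-receptor through which inhibin blocks activin. It read 9.68 with NP, 9.71 with MBP and 9.75 with both, against 9.65 in control. Bmpr1b, a type I receptor that AMH can use, came nearest to the limit, at 7.79 with NP, 7.89 with MBP and 7.88 with both, against 7.69 in control. Like Acvr2a, it was lowest on the control array.

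The SMAD genes, whose products carry these signals to the nucleus, had 0 of 7 members above the filter at 0.2 or more in any comparison with control. The activin SMAD genes Smad2 and Smad3 differed from control by at most 0.07 in size. For MBP the AMH and BMP SMAD genes Smad1 and Smad5 differed by 0.12 and 0.08, the shared Smad4 by 0.07, and the inhibitory Smad6 and Smad7 by -0.03 and 0.10. Smad5 was highest with both compounds, at 9.43 against 9.27 in control. Smad9 was below the filter, at 6.97 with NP, 6.88 with MBP and 6.77 with both, against 6.88 in control. As medians, the 7 had 0.05 with NP, 0.07 with MBP and 0.08 with both, where all kept sets had 0.02, 0.03 and 0.03. Of 11 feedback and target genes of the pathway, among them Skil, Id1 and Id3, 0 reached 0.2.

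Of the listed regulators of Amh and Inha transcription, whose promoter letters were given above, 1 of 12 reached 0.2 against control, for NP+MBP, where 7.71% of all sets were higher by that size. Crem, a CRE-binding regulator of the cyclic AMP response, read 8.27 with NP, 8.20 with MBP and 8.34 with both, against 8.11 in control. Creb1, which binds the same element, was at 9.29 with NP, 9.34 with MBP and 9.39 with both, against 9.21 in control. The largest difference from control was 0.06 for Gata4, 0.04 for Nr5a1 and 0.04 for Sox9. Wt1 was higher with MBP in both pairs, at 0.12 and 0.13. Dmrt1 differed from control by -0.19 with NP, -0.05 with MBP and -0.06 with both. Fshr, the FSH receptor that raises cyclic AMP, read 11.72 with NP, 11.58 with MBP and 11.46 with both, against 11.59 in control. NP+MBP minus NP was -0.25 for Fshr, and MBP minus control was -0.01.

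**Figure D4:**
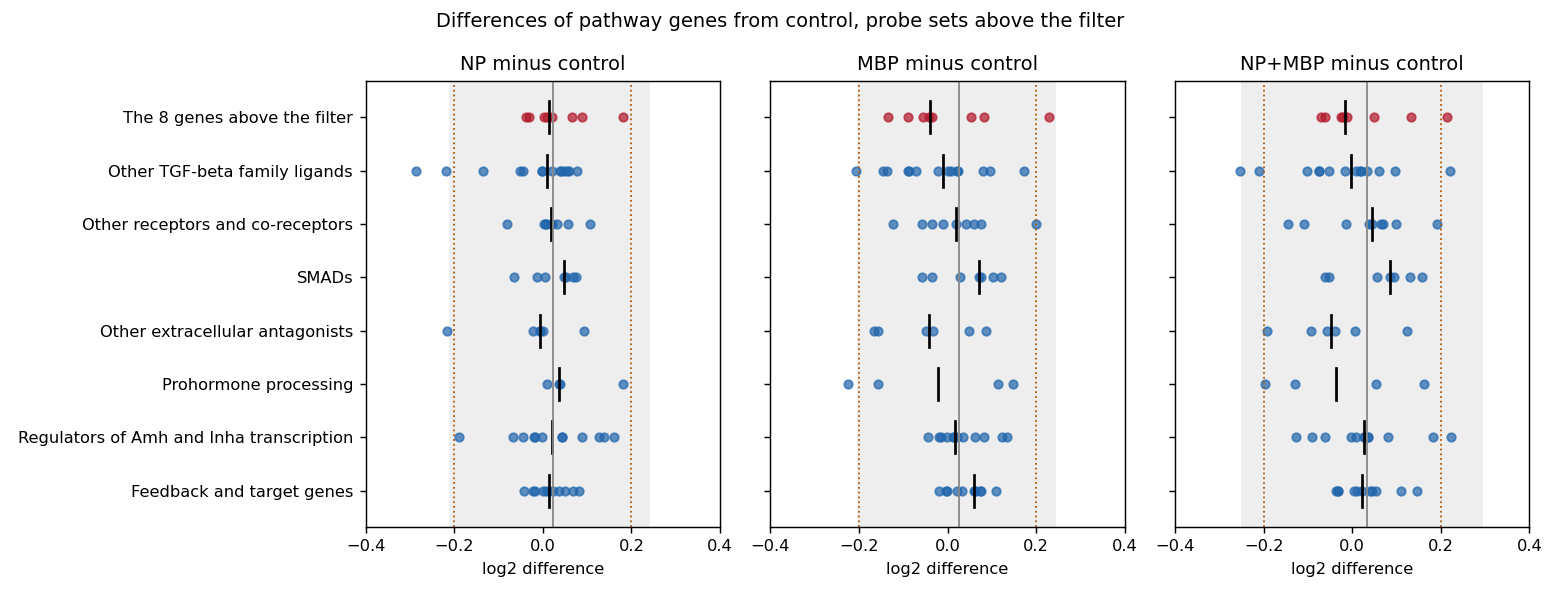
Log2 differences from control (x axis) of the genes above the filter, 1 point per gene and 1 row per list, for NP, MBP and NP+MBP; black bars are list medians, the grey line the median and the grey band the middle 95% of all probe sets above the filter, and dotted lines mark 0.2 either way. The top row holds the 8 genes above the filter, of which Acvr2a passes 0.2 for MBP and for NP+MBP and stays inside the grey band.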

How the data were processed

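The deposited gene-level table held log2 signals that the authors had normalized and summarised by RMA at gene level, per the file headers. MAS5 is the one tool in the submitters' processing notes, where it has no version; the headers were followed here. Column letters were matched to groups through the sample titles, and a second deposited table held the same log2 values (0 cells differed by more than 1e-09). The deposited microRNA table was not used. The build behind the annotation's coordinates was checked against positions in its transcript descriptions: 95.0% of 24982 probe sets, and all 10 genes described, overlapped their RGSC3.4 position. Promoters came from a RefSeq table of build GRCr8.

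Of 29214 probe sets, 27596 were not controls, and 18771 of these carried 1 symbol. The set with the highest mean stood for its gene. limma 3.58.1 (functions lmFit and eBayes, under R 4.3.3) gave the additive model, with Benjamini-Hochberg adjustment over 13798 sets. The fit was tested on simulated arrays with independent noise of the same spread in every set and no interaction. The real arrays need not have these properties, so that run does not show how the fit behaves on them. Other steps used Python 3.11.15, numpy 2.4.6, pandas 2.3.3 and matplotlib 3.10.9.

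The genes, lists and tests were chosen with earlier results of these data known. The naming rule took the 10 genes, each pathway-list gene above the filter at least 0.2 from control (6 of them), not the marker lists, the SMAD genes, and 3 nearest patterns for each of 3 genes; genes named beyond it were chosen after their values were seen. The alternatives were other normalizations, filters, thresholds and priors, the second table, the mean over a gene's rows, and the pairs without the control array.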

Additional observations from a re-analysis of the deposited data

Results flagged for a closer look

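For 6 of the 10 genes, at least 1 compound's difference ran in opposite directions with and without the other compound. With 1 array per group this was not tested. Over all kept probe sets the 2 differences had the same sign in 63.5% for MBP and 61.2% for NP, so a disagreement in sign was common. These shares take each compound by itself. Counted that way, the same sign held for MBP in 7 and for NP in 4 of the 10 genes, 2 of which were below the filter. The share of all sets with a disagreement for at least 1 compound is not given here, so the count of 6 has no background. The departure from additivity, which measures the gap, was 0.14 for Inha, where the NP difference was 0.10 beside MBP and -0.04 alone, and the MBP difference was 0.09 beside NP and -0.05 alone. It was 0.14 for Amhr2, where that of NP was 0.11 beside MBP and -0.03 alone, and that of MBP 0.01 beside NP and -0.13 alone. For Fstl3 it was -0.086, where that of NP was -0.07 beside MBP and 0.02 alone, and that of MBP -0.03 beside NP and 0.05 alone. For NP only, the sign turned in Acvr2a (-0.20), Amh (-0.089) and Inhbb (-0.022).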

How the results depend on the processing

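No setting made limma call any of the 8 genes above the filter. Amh and Acvr2b, below it, were not in the reported fit, and limma did not call them in the fit with no filter. Adjusted p ranged from 0.209 to 0.545 for Fst with MBP over the other settings. The count of all probe sets called for MBP, 0 as reported, was 43 with arrays centred on their medians, 11 above the 75th percentile of signal and 100 with a prior that follows signal. For NP, 0 as reported, it was 2, 1 and 5 in these settings and 13 with no filter. Acvr2a passed 0.2 for NP when arrays were centred (0.21), which made that count 1. At 1.5-fold or above the 75th percentile of signal (2 of the 10 genes kept), the counts for MBP and for NP+MBP were 0, and the MBP count was also 0 without the control array. Model estimates near 0 changed sign: for NP, Inhba to -0.00029 with quantile normalization and -0.0047 with cyclic loess, and Inhbb to 0.010 with centring; for MBP, Inha to -0.014 and -0.0091 and Fstl3 to -0.0052 and -0.0066 with quantile normalization and cyclic loess. Small differences from control also turned. For NP, with quantile normalization and cyclic loess, Acvr2b went to 0.011 and 0.010, Inhba to -0.012 and -0.016 and Inhbb to -0.030 and -0.023, and Fstl3 went to -0.0050 with cyclic loess. For NP+MBP with centring, Amhr2 went to 0.0076, Fstl3 to 0.021 and Inhba to 0.013. The cause was not tested. Each gene had 1 row, so averaging rows changed nothing, and the second table gave the same values.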
